A study of Mus musculus with 2 samples.

Results

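The complement genes described here are 10 genes expressed in leukocytes of the pancreatic islets, taken by symbol from the 32285 genes of the deposited tables: C1qa, C1qb, C1qc, C3, Cfb, Cfp, C3ar1, C5ar1, Cr2 and Cd55. Complement is a cascade of plasma and tissue proteins that marks surfaces and immune complexes for removal. In the classical pathway C1q, built from the A, B and C chains that C1qa, C1qb and C1qc encode, binds antibody or dying cells. In the alternative pathway factor B (Cfb) forms the convertase that cleaves C3, and properdin (Cfp) stabilises it. The fragments C3a and C5a signal through the receptors of C3ar1 and C5ar1, C3 fragments on antigen are bound by complement receptor 2 (Cr2, CD21), and decay-accelerating factor (Cd55) takes convertases apart at the cell's own surface. Most circulating complement is made in the liver, but tissue macrophages are a well-known local source of C1q.

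The counts come from 3' single-cell RNA-seq in droplets. One library was made from WT NOD mice and the other from mice labelled NOD.Cxcl16-/-, so each group has 1 library. NOD mice develop autoimmune diabetes spontaneously, and the animals of both libraries were females aged 12 weeks. Islets were hand-picked after collagenase perfusion of the pancreas and dispersed without enzyme, and live cells that carried CD45 and lacked CD31 were sorted, so islet endocrine, stromal and endothelial cells were selected against. How many animals each library holds is not given in the labels, and no further allele or treatment is named for either group.

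The tables hold 13859 barcodes with 93553185 UMIs (WT NOD) and 10554 barcodes with 98681133 UMIs (NOD.Cxcl16-/-). After quality filters and removal of called doublets, 10715 and 9323 cells remained, with a median of 3879 and 4901 UMIs, and 45 barcode sequences occurred in both libraries. The labelled deletion could not be seen as an absence of Cxcl16 counts. Cxcl16 had 872 CPM (571 UMIs) in WT NOD macrophages and still had 517 CPM (1374 UMIs) in macrophages labelled NOD.Cxcl16-/-. In the same order it had 345 CPM and 260 CPM in the dendritic-cell type cDC2 and 899 CPM and 446 CPM in migratory DC. The level was thus lower with the label in each of these cell types, but far from 0. Which stretch of the gene was deleted is not given in the labels, and 3' counting does not read the whole transcript. The label is kept below as a name only, and no difference is attributed to the genotype. Where 2 values stand together without a library's name, the first is WT NOD and the second is the library labelled NOD.Cxcl16-/-. With 1 library per group no difference can be tested: every interval below is an exact 95% interval for counting error only, and mice, sorting and library preparation cannot be told apart from genotype.

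Cells were assigned to types, called gates, by marker genes counted in each cell, none of them a complement gene of the 10, and 11 types with at least 50 cells in both libraries were compared. These were macrophages (59 and 202 cells), the dendritic-cell types cDC2 (131 and 275), cDC1 (53 and 93) and migratory DC (55 and 121), B cells (1806 and 2052), plasma cells (70 and 135), CD4 T cells (1649 and 1654), regulatory T cells (266 and 404), CD8 T cells (2463 and 1473), gamma-delta T cells (126 and 123) and NK cells (54 and 58). A level is given in CPM, the UMIs of a gene per 1000000 UMIs of all genes, summed over the cells of a gate. A gate is only as pure as its markers: 36.5% and 28.2% of kept cells fell in no gate. Among the 10 genes that most set a gate apart, the B-cell gate had 5 of its own markers, the cDC1 gate 4 and the macrophage gate 1 (Apoe), beside the 3 C1q chains. The cDC2 gate had none of its own markers there and was led by Ifitm1, Ifitm3 and Il1r2, with Cfp among the 10, so its name rests on the gate's rule alone.

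The 3 C1q genes lie side by side on the minus strand of mouse chromosome 4 (GRCm38, GENCODE M21). C1qb (ENSMUSG00000036905) spans positions 136880129 to 136886187, C1qc (ENSMUSG00000036896) 136889804 to 136893065 and C1qa (ENSMUSG00000036887) 136895917 to 136898803. Because these neighbours were expressed together, the sequences just before the start sites of C1qb and C1qc are shown, 5′ to 3′ on the minus strand. RefSeq promoters (GRCm38.p6) were matched for 8 of the 10 genes, and C1qa and Cfb had no entry. The C1qb stretch is chr4:136886201-136886450, the 250 bases before its RefSeq start, and the C1qc stretch is chr4:136893066-136893164, the part of that window that also precedes the GENCODE start. Capitals mark matches on either strand to GAGGAA, a core bound by the myeloid factor PU.1, and to TGCTGA, the core of sites bound by MAF-family factors; the 2 motifs do not overlap in these stretches.
C1qb: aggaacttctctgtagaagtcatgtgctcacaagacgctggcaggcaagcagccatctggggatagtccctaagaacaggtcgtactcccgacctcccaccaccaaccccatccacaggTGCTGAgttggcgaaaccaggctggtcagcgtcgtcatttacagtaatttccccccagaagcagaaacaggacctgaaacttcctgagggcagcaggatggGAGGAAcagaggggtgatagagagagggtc
C1qc: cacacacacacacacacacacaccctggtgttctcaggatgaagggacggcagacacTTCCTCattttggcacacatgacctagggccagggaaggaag
Over 27025 promoters of the same 250-base length, 23.1% held GAGGAA on either strand and 15.8% held TGCTGA. Of the 8 matched complement genes, GAGGAA occurred in 2 (C1qb and C1qc) and TGCTGA in 5 (C1qb, C3, C3ar1, C5ar1 and Cd55). Such short matches are common and describe these letters only.

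Among the 11 ranked gates, all 10 genes had their highest level in the same gate in both libraries. It was the macrophage gate for 7 (the C1q chains, C3, Cfb, C3ar1 and C5ar1), the cDC2 gate for Cfp and the B-cell gate for Cr2 and Cd55, as the map of levels by gate shows. The same gate was highest for each gene under all 9 processing alternatives tried. Of these, 10 CPM added to every level could not change which gate is highest. T-cell and NK gates were highest for none. Classical monocytes (9 and 15 cells) were too few to be ranked. In the WT NOD library they lay above macrophages for Cfb (1240 and 382 CPM), C3 (334 and 302 CPM) and C5ar1 (207 and 133 CPM). The intervals overlapped for C3 and C5ar1. In the other library monocytes lay below macrophages for these genes.

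**Figure D1:**
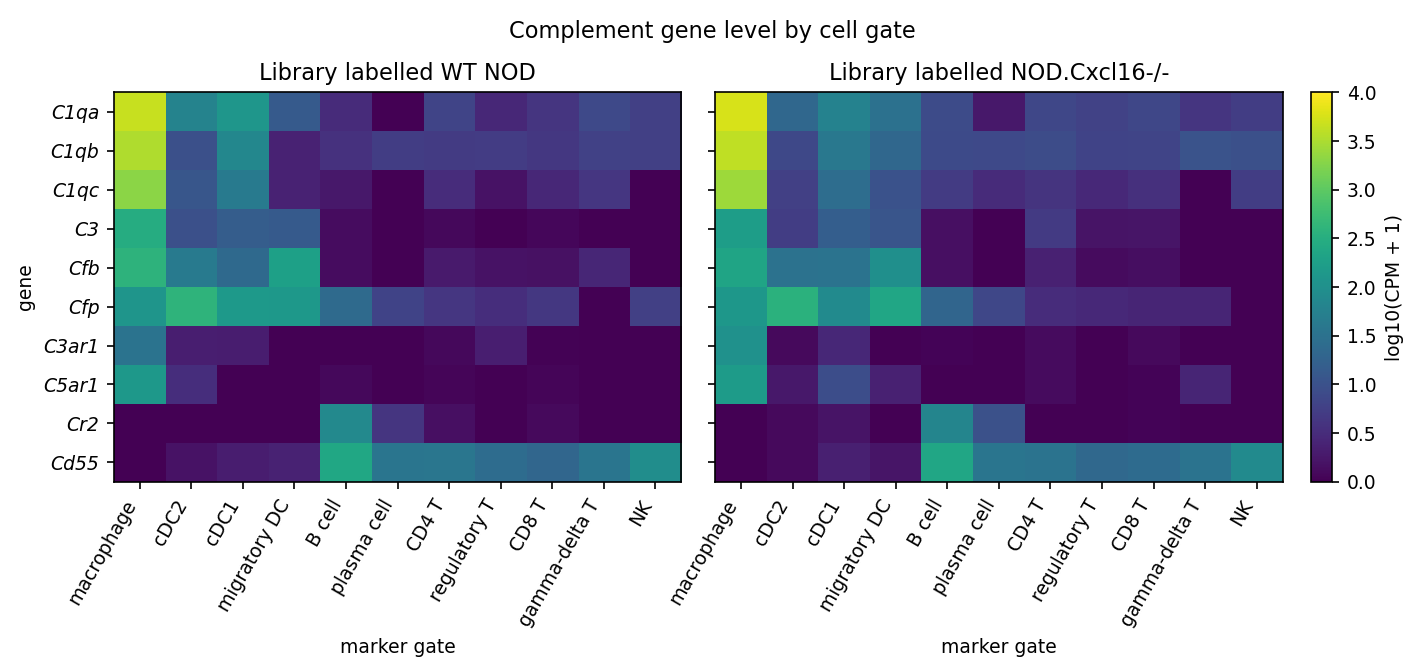
Level of the 10 complement genes (rows) in 11 marker gates (columns) of the library labelled WT NOD (left) and the library labelled NOD.Cxcl16-/- (right); colour is log10(CPM + 1). The C1q rows are brightest in the macrophage column, at 1992 to 4683 CPM in the left panel and 2551 to 5722 CPM in the right, and Cr2 and Cd55 are brightest in the B-cell column.

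The C1q chains were among the most abundant transcripts of islet macrophages. C1qa had 4683 CPM in WT NOD macrophages (interval 4519 to 4852) and 5722 CPM in those labelled NOD.Cxcl16-/- (5631 to 5813). It ranked 13 and 14 among all genes of the gate. C1qb had 3286 CPM (3149 to 3428) and 4204 CPM (4127 to 4283). C1qc had 1992 CPM (1885 to 2103) and 2551 CPM (2491 to 2613). Among the 11 ranked gates the next for each chain was cDC1 in both libraries, and the gap to it was wide: 37.7-fold and 96.8-fold for C1qa, 47.5-fold and 109.6-fold for C1qb, and 45.3-fold and 97.4-fold for C1qc. The dendritic-cell gates admitted only cells with at most 3 macrophage markers, and C1q followed the number of those markers, as described below. How much of the gap this rule sets was not tested.

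Outside macrophages the signal was thin. In cDC1 C1qa reached 124 CPM (102 to 149) and 59.1 CPM (47.9 to 72.1), and a single cell held 42.5% and 36.1% of those UMIs. The 9 and 15 classical monocytes, too few to be ranked, had 223 CPM and 123 CPM of C1qa, from 14 and 21 UMIs of which 1 cell held 78.6% and 90.5%. In the 7 lymphoid gates C1qa did not pass 6.64 CPM and 7.34 CPM. With each cell thinned to 2000 UMIs, 59.6% (45.1 to 73.0) and 80.3% of macrophage-gate cells had a C1qa UMI, against at most 2.59% and 2.05% of cells in any lymphoid gate. Unthinned, a C1qa UMI was found in 72.9% and 82.7% of macrophages (median 11538 and 12048 UMIs) and in 0.997% and 3.12% of B cells (median 4430 and 4560 UMIs). No C1q expression by lymphoid cells is read from these shares.

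The 3 chains were detected together. Of the WT NOD macrophages 38 of 59 (64.4%) had UMIs of all 3 chains, as had 158 of the 202 labelled NOD.Cxcl16-/- (78.2%), and 14 and 32 cells had none. Few cells lay between: 7 WT NOD cells had 2 chains, and in the other library 8 cells had 2 and 4 had 1. At 2000 UMIs a cell the shares with all 3 were 59.6% and 74.5%. The proportions of UMIs were also close. C1qa made up 47.0% (45.8 to 48.2) and 45.9% (45.3 to 46.4) of C1q UMIs, C1qb 33% and 33.7%, and C1qc the rest. In kept cells outside all gates C1qa made up 46.8% and 45.4%, so these cells held the chains in nearly the same mixture.

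**Figure D2:**
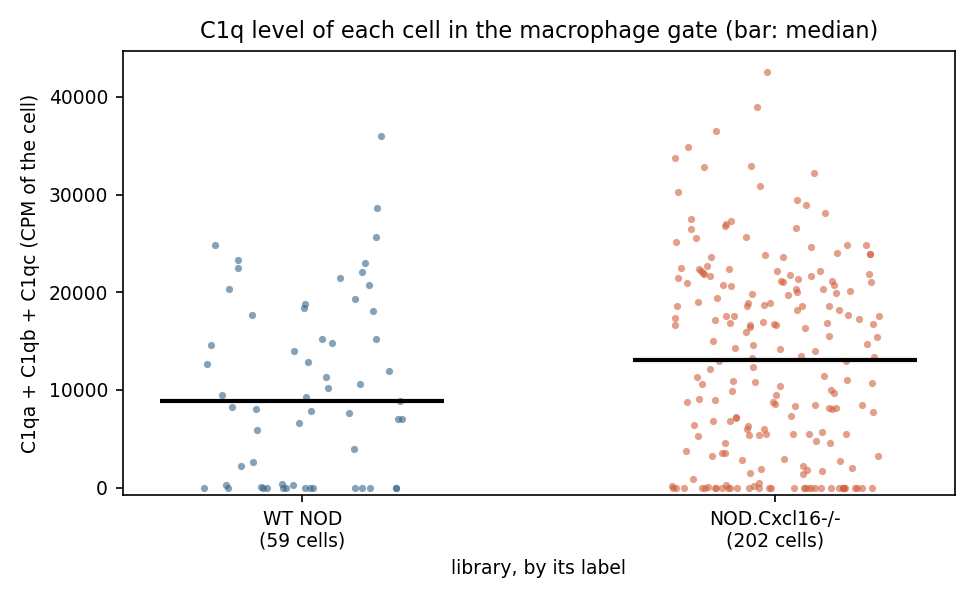
Summed level of C1qa, C1qb and C1qc (CPM of each cell) in every cell of the macrophage gate, 59 cells of the library labelled WT NOD and 202 of the library labelled NOD.Cxcl16-/-; bars are medians, 8827 and 13099 CPM. In both libraries some cells lie at 0 and the highest reach 35979 and 42606 CPM.

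Macrophage-gate cells differed widely in C1q. The level over single WT NOD cells ran from 0 to 35979 CPM (median 8827, quartiles 178 and 17859). In the other library it ran from 0 to 42606 CPM (median 13099, quartiles 3545 and 20919), so the ranges overlapped almost entirely. It followed the number of macrophage markers a cell showed. Cells with 6 to 10 of the 10 markers had 15503 CPM of C1q (15109 to 15905; 30 cells) and 15517 CPM (15337 to 15698; 117 cells), a difference smaller than the counting error. Cells with 3 to 5 markers had 2406 CPM (2227 to 2596; 29 cells) and 5632 CPM (5470 to 5797; 85 cells). The 6-marker limit was chosen after the data had been seen.

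Ratios between libraries are on the log2 scale, NOD.Cxcl16-/- label over WT NOD, with 1 CPM added to each (the interval beside a ratio leaves it out), and 1.5-fold is the size used to call a difference. In the macrophage gate 3 of the 8 complement genes with at least 20 UMIs passed it, 1 higher (C3ar1) and 2 lower (C3 and Cfb), against 23.3% of the 8549 genes measured there (13.2% higher and 10.1% lower). The median log2 ratio was 0.27 for the 8 genes and 0.00 for all genes. The C1q chains did not pass it: the log2 ratio over the whole gate was 0.29 for C1qa, 0.36 for C1qb, 0.36 for C1qc and 0.32 for their sum. Among cells with 6 or more markers the log2 ratio of the sum was 0.0012, and among cells with 3 to 5 markers it was 1.33 for C1qa, 1.30 for C1qb and 0.90 for C1qc. The whole-gate ratio also turned to -0.36 when cells with markers of other lineages were let in, and rose to 1.10 with a minimum of 200 genes per cell. The direction of the C1q ratio thus depended on which cells were let into the gate. Doublet calls removed 31 of 90 WT NOD barcodes from the macrophage gate and 1 of 203 barcodes of the other library; with them kept the log2 ratio was 0.38.

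Most C1q UMIs were not in the macrophage gate, as the plot of barcodes holding C1q shows. Of all C1q UMIs in barcodes that passed the quality filters, doublet calls included, the macrophage gate held 19.3% and 31.5%. Barcodes with macrophage and T-cell markers held 41.2% (185 barcodes, 146 of them called doublets) and 31.4% (262 barcodes, 97 called doublets). Barcodes with macrophage markers and markers of 2 or more other lineages held 30.3% and 31.3%, in 118 and 230 barcodes with median totals of 60596 and 41421 UMIs, 113 and 115 of them called doublets. All lymphoid gates together held 0.731% and 0.602%. Whether the barcodes with mixed markers hold RNA of more than 1 cell was not tested.

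**Figure D3:**
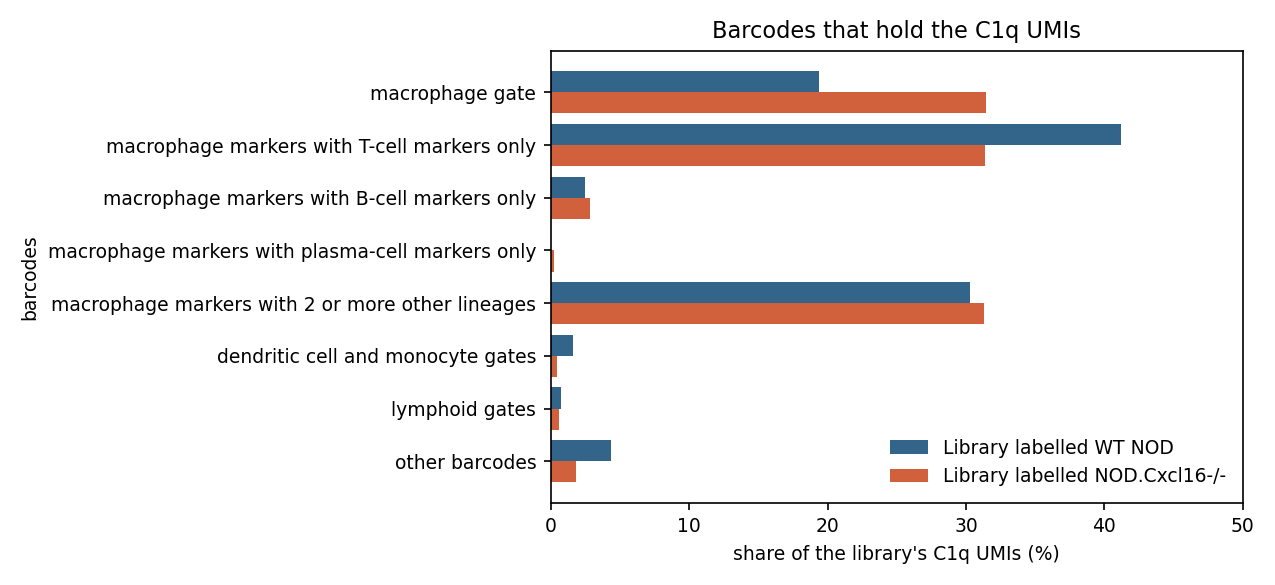
Share of each library's C1q UMIs (C1qa, C1qb and C1qc summed, in percent) by kind of barcode, over all barcodes that passed the quality filters. Bars are the library labelled WT NOD (blue) and the library labelled NOD.Cxcl16-/- (orange); barcodes with macrophage and T-cell markers hold 41.2% and 31.4%, and the macrophage gate 19.3% and 31.5%.

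C3 and Cfb, the alternative-pathway components that form the C3 convertase, were also highest in macrophages among the ranked gates. Both were lower in macrophages labelled NOD.Cxcl16-/-. C3 (ENSMUSG00000024164; chromosome 17, 57203970 to 57228136, minus strand) had 302 CPM (262 to 347) in WT NOD macrophages and 166 CPM (150.5 to 182) in the others. Its log2 ratio was -0.86 (-1.11 to -0.62). Cfb (ENSMUSG00000090231; chromosome 17, 34856374 to 34862518, minus strand) had 382 CPM (336 to 432) and 219 CPM (202 to 238). Its log2 ratio was -0.80 (-1.02 to -0.58). Neither pair of intervals overlapped. A C3 UMI was found in 69.5% and 42.1% of macrophages and a Cfb UMI in 71.2% and 43.6%, or 30.8% and 17.6% for C3 and 42.3% and 23.4% for Cfb after thinning. In lymphoid gates the thinned shares did not pass 0.285% for C3 and 0.413% for Cfb.

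The size of the difference varied between sets of macrophage barcodes. In cells with 6 or more markers C3 had 384 CPM and 163 CPM (log2 ratio -1.23), and Cfb had 302 CPM and 186 CPM (-0.69). In cells with 3 to 5 markers Cfb differed by a similar amount (491 and 293 CPM, -0.74), whereas C3 did not pass 1.5-fold (191 and 171 CPM, -0.16, interval -0.62 to 0.33). In the barcodes with macrophage and T-cell markers, which the gate leaves out, C3 had 114 CPM and 57.0 CPM, and Cfb had 213 CPM and 96.4 CPM. In barcodes with markers of 2 or more other lineages the values were close (62.1 and 55.1 CPM of C3, 91.3 and 86.5 CPM of Cfb). In the 15 and 31 barcodes with B-cell markers C3 had 80.0 CPM and 54.9 CPM, and Cfb was higher in the second library (50.5 and 83.9 CPM). All these barcodes come from the same 2 libraries and are no replicate. Both genes stayed past 1.5-fold in the macrophage gate under each of 10 alternatives, the 6-marker limit included, with log2 ratios from -1.67 to -0.65 for C3 and from -1.51 to -0.69 for Cfb.

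C3 and Cfb differed outside macrophages. C3 had only 14.3 CPM and 14.6 CPM in its next gate, cDC1, 21.2-fold and 11.3-fold below macrophages. Among the ranked gates Cfb had a second site in migratory DC, the dendritic cells marked by Fscn1 and Ccr7, with 189 CPM (158 to 224) and 95.8 CPM (80.9 to 113). Again the lower value carried the NOD.Cxcl16-/- label (log2 ratio -0.97, interval -1.33 to -0.63). One WT NOD migratory DC held 26.9% of the Cfb UMIs of its gate, and the ratio without that cell was not computed. In cDC2 Cfb had 41.7 CPM and 31.7 CPM, and the ratio of -0.39 (-0.84 to 0.05) did not pass 1.5-fold. Classical monocytes, too few to be ranked with 9 and 15 cells, had 1240 CPM and 152 CPM of Cfb and 334 CPM and 135 CPM of C3, from 78 and 26 Cfb UMIs and 21 and 23 C3 UMIs. Their WT NOD level of Cfb (980 to 1548) lay above the 382 CPM of WT NOD macrophages. In the other library it lay below the 219 CPM of macrophages. Cfb overlaps over 6107 bases, on the same strand, the gene model Gm20547, which was not used here.

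In the CD4 T gate C3 had 2 and 38 UMIs, with a log2 ratio of 1.96. Of those 38 UMIs 35 came from 1 cell, and that cell also held 90 UMIs over all 6 of the fibroblast or stellate markers. No level of C3 in T cells is read from it.

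Cfp (ENSMUSG00000001128; chromosome X, 20925454 to 20931555, minus strand) encodes properdin, the positive regulator of the alternative pathway, and was highest in the gate named cDC2, whose leading genes do not include its own markers. It had 402 CPM (372 to 433) in WT NOD cDC2 and 360 CPM (341 to 380) in cDC2 labelled NOD.Cxcl16-/-. A UMI was found in 90.8% and 90.2% of cDC2 cells, and in 55.0% and 48.7% after thinning to 2000 UMIs. The B-cell gate had 3.45% and 2.24% after thinning. The ratio between the libraries, -0.16 (-0.29 to -0.02), was far inside 1.5-fold. Of all Cfp UMIs in barcodes that passed the quality filters, doublet calls included, the dendritic-cell and monocyte gates held 21.4% and 29.4%. Barcodes in no gate, those with macrophage and other-lineage markers aside, held 47.0% and 38.3%, at 74.1 CPM and 81.2 CPM. The largest part of the Cfp UMIs thus lay in barcodes that were not typed.

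The order of the other myeloid gates for Cfp differed between libraries. In the WT NOD library cDC1 (141 CPM), migratory DC (135 CPM) and macrophages (119 CPM) had overlapping intervals. In the other library they were apart, with 234 CPM in migratory DC, 129 CPM in macrophages and 80.4 CPM in cDC1. With the NOD.Cxcl16-/- label, Cfp was thus past 1.5-fold higher in migratory DC (log2 ratio 0.78, interval 0.46 to 1.13) and past 1.5-fold lower in cDC1 (-0.80, -1.17 to -0.44). One WT NOD migratory DC held 38.5% of that gate's Cfp UMIs. In migratory DC 4 of 5 measured complement genes passed 1.5-fold, 3 higher and 1 lower, against 32.2% of all genes measured there (23.2% higher and 8.96% lower). Higher were C1qa, C1qb and Cfp, and lower was Cfb. C1qa had 12.7 CPM and 30.2 CPM there from 9 and 46 UMIs. C1qb had 1.41 CPM and 20.3 CPM from 1 and 31 UMIs, so the C1q calls rest on few UMIs. In cDC1 4 of 6 passed 1.5-fold, all lower, against 18.2% (9.94% higher and 8.23% lower). They were Cfp and the C1q chains C1qa, C1qb and C1qc. In WT NOD cDC1 only 5, 6 and 5 of 53 cells had a UMI of these chains. A single cell held 42.5%, 57.1% and 47.5% of those UMIs, so these calls rest on few cells.

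Within cDC2 Cfp was higher in cells without the lectin markers of classical cDC2. Cells without a UMI of Cd209a, Clec10a or Mgl2 had 443 CPM (404 to 484; 88 cells) and 389 CPM (362 to 418; 151 cells). Cells with one of them had 327 CPM (283 to 376; 43 cells) and 327 CPM (301 to 356; 124 cells). The CPM intervals did not overlap in either library, but both differences were under 1.5-fold and the thinned shares overlapped. They were 51.1% (40.2 to 61.9) without and 32.6% (19.1 to 48.5) with the markers in WT NOD cells, and 47.0% (38.9 to 55.3) and 42.7% (33.9 to 51.9) in the others. B cells had 23.5 CPM and 19.3 CPM, and pDC, which were not ranked because the second library had 42 of them, had 82.9 CPM (54.2 to 121) and 160.4 CPM (123 to 205).

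C3ar1 and C5ar1, the receptors of the anaphylatoxins C3a and C5a, had little signal outside macrophages among the ranked gates. C5ar1 (ENSMUSG00000049130; chromosome 7, 16246743 to 16259540, minus strand) had 133 CPM (106 to 164) in WT NOD macrophages and 158 CPM (143 to 174) in the others. The log2 ratio of 0.25 (-0.09 to 0.60) did not pass 1.5-fold. A C5ar1 UMI was found in 39.0% and 59.4% of them, and in 17.3% and 27.1% after thinning. Its next gate had 2.38 CPM (cDC2) and 7.92 CPM (cDC1), and in the latter 84.6% of the UMIs lay in 1 cell. The 9 and 15 classical monocytes had 207 CPM and 105 CPM.

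C3ar1 (ENSMUSG00000040552; chromosome 6, 122847138 to 122856161, minus strand) was the 1 gene of the 10 that was past 1.5-fold higher in macrophages labelled NOD.Cxcl16-/-. WT NOD macrophages had 32.1 CPM (19.8 to 49.0) from 21 UMIs, and the others had 103 CPM (91.3 to 116) from 274 UMIs. The log2 ratio was 1.66 (1.04 to 2.40). After thinning, 5.77% and 22.3% of macrophage-gate cells had a UMI, and no lymphoid gate passed 0.413%. In cells with 6 or more macrophage markers the levels were 47.6 CPM and 139 CPM (log2 ratio 1.53). In cells with 3 to 5 markers the log2 ratio was 0.96, with a wide interval (-0.75 to 3.43) from 3 and 18 UMIs. Barcodes with macrophage and T-cell markers had 23.4 CPM and 41.4 CPM. Those with markers of 2 or more other lineages had 10.1 CPM and 26.8 CPM. In the 15 and 31 barcodes with B-cell markers C3ar1 was lower in the second library (63.2 and 32.3 CPM). The ratio in the macrophage gate stayed past 1.5-fold under 9 of the 10 alternatives and fell to 0.32 when cells with markers of other lineages were let in.

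**Figure D4:**
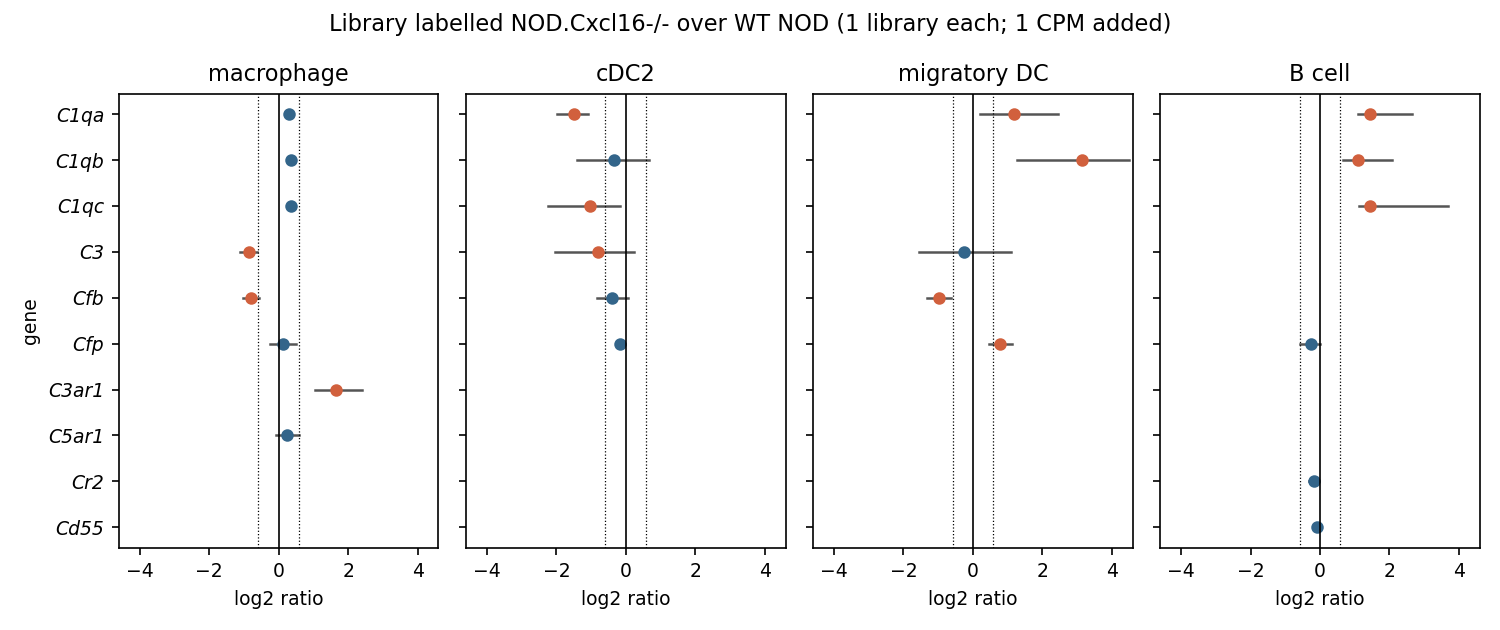
Log2 ratio of each gene between the libraries (labelled NOD.Cxcl16-/- over WT NOD) in the macrophage, cDC2, migratory DC and B-cell gates, for genes with at least 20 UMIs in both libraries together; lines are 95% counting intervals (that of C1qb in migratory DC runs past the axis), dotted lines are 1.5-fold, and orange points lie past it. In macrophages C3 (-0.86) and Cfb (-0.80) lie below and C3ar1 (1.66) above, while the C1q chains lie between 0.29 and 0.36.

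In the cDC2 gate 3 of 6 measured complement genes passed 1.5-fold, all lower with the NOD.Cxcl16-/- label, against 15.1% of the genes measured there (8.94% higher and 6.2% lower). They were C1qa (60.7 CPM and 20.9 CPM), C1qc (10.7 CPM and 4.68 CPM) and C3 (8.34 CPM and 4.41 CPM). One WT NOD cell held 36.3% of the C1qa UMIs and a single cell held 77.8% of the C1qc UMIs, so these calls rest on few cells. With no limit on markers of other lineages all 3 were higher instead (log2 ratio 0.38, 1.29 and 0.25).

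Cr2, the receptor of C3d on B cells and follicular dendritic cells, was a B-cell transcript. Cr2 (ENSMUSG00000026616; chromosome 1, 195136811 to 195176716, minus strand) had 74.0 CPM (68.4 to 80.0) in WT NOD B cells and 65.5 CPM (60.9 to 70.5) in B cells labelled NOD.Cxcl16-/-. The B-cell gate held 92.5% and 88.3% of the Cr2 UMIs of all kept cells. A UMI was found in 25.2% and 26.2% of B cells, and in 13.6% and 12.7% after thinning. In macrophages 0 UMIs were counted, which allows up to 4.58 CPM and 1.13 CPM. Plasma cells, which arise from B cells and shut down much of the B-cell programme, had 3.20 CPM and 8.69 CPM, from 3 and 21 UMIs.

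Cr2 differed between kinds of B cell in the same way in both libraries. B cells with Fcer2a, the CD23 gene typical of follicular B cells, had 104 CPM (94.5 to 114; 879 cells) and 93.2 CPM (84.9 to 102; 1008 cells). B cells with Bhlhe41 or Zbtb32, genes known from B-1 and memory-like B cells, had 23.4 CPM (16.2 to 32.7; 211 cells) and 22.2 CPM (16.2 to 29.7; 255 cells). The remaining B cells had 59.4 CPM and 56.4 CPM. Cells with germinal-centre markers were few, 6 and 28, and had 11.2 CPM from 1 UMI and 39.3 CPM (24.0 to 60.7) from 20 UMIs. The CPM intervals of the first 3 kinds did not overlap in either library. After thinning, the shares of Fcer2a B cells and of the remaining B cells did overlap. They were 16.3% (13.8 to 18.9) and 13.2% (10.5 to 16.2) in WT NOD, and 16.5% (14.2 to 18.9) and 12.9% (10.5 to 15.6) in the other library. B cells with Bhlhe41 or Zbtb32 lay below both, at 3.45% (1.40 to 6.98) and 5.56% (3.07 to 9.15).

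Cd55 (ENSMUSG00000026399; chromosome 1, 130439027 to 130462744, minus strand), the decay-accelerating factor, was lymphoid. WT NOD B cells had 244 CPM (234 to 255) and B cells labelled NOD.Cxcl16-/- 229.9 CPM (221 to 239), and 54.5% and 56.9% of them had a UMI (36.8% and 37.95% after thinning). NK cells came next with 91.5 CPM (55.1 to 143) and 81.2 CPM (48.9 to 127), from 19 UMIs each. CD4 T cells (36.2 and 32.8 CPM) and plasma cells (35.2 and 34.4 CPM) had overlapping intervals, and CD8 T cells had 19.8 CPM and 23.8 CPM. Macrophages again had 0 UMIs in 59 and 202 cells, which allows a share of up to 5.08% and 1.49% of cells with a UMI. No Cd55 transcript was thus detectable at this depth in the cells with the most C1q.

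Cd55 differed between the same B-cell kinds as Cr2, and its level was low in cycling T cells, those with at least 2 of Mki67, Top2a, Ube2c, Birc5 and Cdk1. Fcer2a B cells had 322 CPM (305 to 340) and 331 CPM (315 to 347), against 97.1 CPM (81.7 to 115) and 84.8 CPM (72.6 to 98.4) in B cells with Bhlhe41 or Zbtb32. Cycling CD4 T cells had 11.9 CPM (7.08 to 18.9) and 6.77 CPM (3.87 to 11.0), against 36.2 CPM (32.3 to 40.5) and 32.8 CPM (29.4 to 36.6) in the whole CD4 T gate, which includes them. Cycling CD8 T cells had 7.46 CPM (5.64 to 9.69) and 9.95 CPM (7.29 to 13.3), against 19.8 CPM (17.7 to 22.1) and 23.8 CPM (21.0 to 26.7) in the whole CD8 T gate. Cycling cells were deeper: cycling CD4 T cells had medians of 9590 and 16889 UMIs, and the whole gate had 4025 and 4417. At 2000 UMIs a cell, 6.82% (2.54 to 14.3) and 0.847% (0.0215 to 4.63) of cycling CD4 T cells had a Cd55 UMI, against 7.08% (5.82 to 8.501) and 7.72% (6.46 to 9.13) of the gate. The shares thus lay apart in the library labelled NOD.Cxcl16-/- and overlapped in WT NOD. The near copy Cd55b had 0.918 CPM and 1.16 CPM in B cells, and the antisense gene Gm16083 overlaps 169 bases of Cd55 on the opposite strand.

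**Figure D5:**
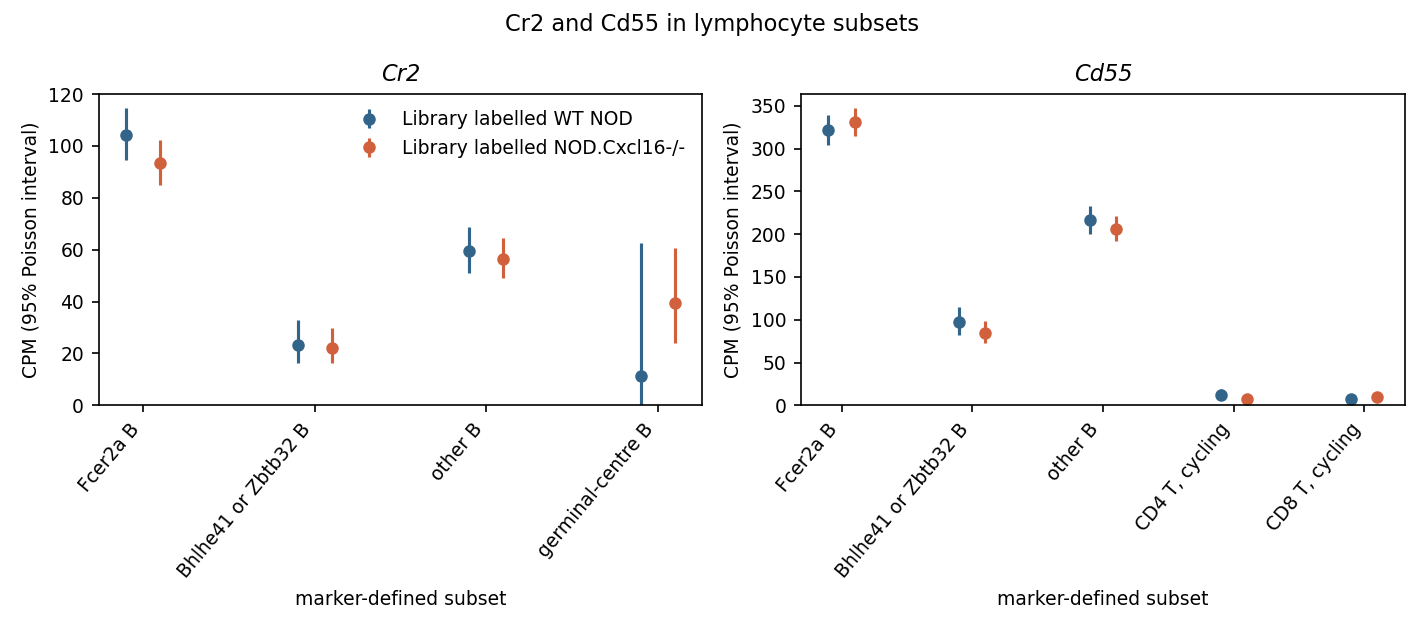
Level of Cr2 (left, B-cell kinds) and Cd55 (right, B-cell kinds and cycling T cells) in CPM with 95% Poisson intervals, for the library labelled WT NOD (blue) and the library labelled NOD.Cxcl16-/- (orange). Both genes are higher in Fcer2a B cells than in B cells with Bhlhe41 or Zbtb32, and Cd55 lies at 6.77 to 11.9 CPM in cycling CD4 and CD8 T cells.

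Between the libraries neither B-cell gene passed 1.5-fold. The log2 ratio was -0.17 (-0.33 to -0.02) for Cr2 and -0.09 (-0.17 to -0.0021) for Cd55, both inside 1.5-fold under each of 9 alternatives. In the B-cell gate 3 of 6 measured complement genes passed 1.5-fold, against 6.78% of all genes measured there (4.09% higher and 2.69% lower). These 3 were the C1q chains, all higher and all at low levels. C1qa had 2.07 CPM and 7.34 CPM, C1qb 2.75 CPM and 6.98 CPM, and C1qc 0.803 CPM and 3.94 CPM. None of the 3 passed 1.5-fold with 10 CPM added in place of 1. Beside them, all C1q UMIs of kept cells in no gate came to 294 CPM and 1571 CPM. What part free RNA or mixed barcodes have in the B-cell values was not tested.

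Calls in the remaining gates were at similarly low levels. In CD8 T cells C1qa (3.10 CPM and 6.21 CPM) was past 1.5-fold higher and Cfp (3.52 CPM and 1.62 CPM) lower, 2 of 5 measured genes against 4.77% of all (2.45% higher and 2.32% lower). In CD4 T cells C1qb (3.88 CPM and 7.48 CPM) and C3, described above, were higher, 2 of 7 against 5.28% (2.29% higher and 2.99% lower). In plasma cells Cr2 was higher, 1 of 4 against 39.8% (34.9% higher and 4.95% lower), a share near that of all genes. In regulatory T cells 0 of 2 measured genes passed 1.5-fold, against 11.8% (6.3% higher and 5.54% lower). In gamma-delta T cells 0 of 1 did, against 20% (13.5% higher and 6.54% lower), and in NK cells 0 of 1, against 21.4% (12.2% higher and 9.23% lower).

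Of 47 further complement genes listed for comparison, 18 had fewer than 20 UMIs in all kept cells. These 18 include C6, C8a, C8b and C9 of the membrane attack complex, Masp1, Mbl1 and Mbl2 of the lectin pathway, and Cfi, the protease that inactivates C3b. C4b, a substrate of the C1 complex, had 6.11 CPM and 4.89 CPM in macrophages, and C1ra, a protease of that complex, had 6.11 CPM and 6.40 CPM. Of the 29 measured genes 6 were highest in macrophages in both libraries: C1ra, C4b, Colec12, Cd93, C5ar2 and Calr. In WT NOD macrophages C1ra, C4b and C5ar2 each had 6.11 CPM with an interval of 1.66 to 15.6, so their places rest on few UMIs. The C1q chains were thus far above the other classical-pathway genes in the same cells, counted as 3' UMIs, which do not grow with transcript length.

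Only 6 of the 47 reached 50 CPM in their highest gate. Calr, the calreticulin gene, had 385 CPM and 447 CPM in macrophages, and C1qbp had 210 CPM and 173 CPM in cDC1. The integrin chains of complement receptors 3 and 4 were spread over several types, Itgax highest in cDC2 (165 CPM and 166 CPM), Itgam in NK cells (53.0 CPM and 55.6 CPM) and Itgb2 in WT NOD cDC2 (148 CPM) and in NK cells of the other library (197 CPM). Cr1l, the mouse membrane regulator Crry, was highest in NK cells, at 116 CPM (74.1 to 172) and 72.7 CPM (42.3 to 116). In the second library that interval includes the 69.9 CPM of B cells, so the order is not resolved there. Unlike Cd55, Cr1l had UMIs in macrophages (41.2 CPM and 33.5 CPM). Of these 6 genes, only Itgam passed 1.5-fold between the libraries in macrophages, downward (30.5 CPM and 19.6 CPM, log2 ratio -0.62).

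Likeness was measured as Pearson's r of log2(CPM + 1) over 22 points, 11 gates in each of 2 libraries, among 13186 genes. The points share libraries, and one gate sets much of each value, so r is a description. C1qa was most like C1qc (r = 0.97), followed by Gm13710 and Lyz1, and C1qb was most like Lyz1 (0.97), C1qc and Tmem119. C3 was nearest to Tgfbi (0.97) and Msr1, genes of phagocytes, and to Gm21188. C3ar1 was nearest to Klra2 (0.97), Ccl12 and Kcnj10, and C5ar1 to Kcnj10 (0.96), Gm31522 and Lyz1. Cfp was nearest to Pira2 (0.97), Rogdi and Gm6377, and Cfb to Gm15056 (0.98), Hebp1 and Gm4065, none of them complement genes. Cr2 was nearest to Gm31243 (0.99), 4930597A21Rik and Gm4610, and Cd55 to Kcnq5 (0.95), Ripor2 and Mfsd4a.

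Markers of other cell types were looked for in the macrophage gate, since it carries most results. All 10 macrophage markers were present, with summed levels of 4704 CPM and 6294 CPM. Endocrine markers, with Ins1 and Ins2 among the gate's 10 leading genes, summed to 7533 CPM (5 of 6 with a UMI, Ppy at 0) and 7849 CPM (6 of 6). Plasma-cell markers summed to 134 CPM (6 of 8) and 146 CPM (7 of 8), and T-cell markers to 64.1 CPM and 41.0 CPM (6 of 6 in both) and B-cell markers to 65.6 CPM (6 of 8) and 28.2 CPM (5 of 8). Of 5 neutrophil markers 1 had UMIs (25.9 CPM and 22.2 CPM), with S100a8 and S100a9 at 0. All 5 mast-cell or basophil markers and all 3 erythroid markers were at 0 in both, and fibroblast markers summed to 7.63 CPM (3 of 6) and 4.52 CPM (4 of 6). Acinar markers were at 0 and at 2.26 CPM (2 of 5). Of 4 endothelial markers all had UMIs (19.8 CPM and 22.2 CPM). The part of these other signals in the complement levels was not tested.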

How the data were processed

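The values the authors deposited are raw counts of UMIs, made with Cell Ranger 7.0.1 (per the file headers) on mm10 (per the submitters' processing notes). The annotation and the treatment of intronic reads are not given in the sources used here. Barcodes with at least 500 genes and at most 10% mitochondrial UMIs were kept. Doublets were scored by a re-implementation of Scrublet's scheme (30 components, 2 simulated doublets per barcode) and removed at 0.8% per 1000 barcodes: 1537 (11.1%) and 891 (8.44%). The number removed is set by that rate.

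Gates needed at least 3 markers (plasma cell 4, gamma-delta T 2 with Trdc, classical monocyte Ly6c2 and Lyz2; myeloid gates also 4 of the pan-myeloid markers) and at most 2 T-cell or B-cell markers, or 3 pan-myeloid markers, of another lineage. Dendritic-cell gates also allowed at most 3 macrophage markers. These thresholds were set after the data had been seen: a stricter first version left fewer than 50 WT NOD macrophages, and levels of the complement genes under it had been looked at. The 10 genes, the further list and the markers were chosen with earlier results of these data known. All 10 genes and, of the 47 further genes, those at 50 CPM in some gate are named; for each of the 10, the 3 most alike genes with 100 or more UMIs are named.

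Counts were summed per gate and library. CPM carry exact Poisson and shares exact Clopper-Pearson intervals (95%); PCR and sampling of mice add error they do not cover. A count of 0 allows 3 counts. Cells were thinned to 2000 UMIs for shares. A log2 ratio adds 1 CPM; genes with 20 UMIs were measured, and 1.5-fold is a call of size, not a test. No p-value is given and no count model was run, since each group is 1 library. The ratio was tested on simulated data. Python 3.11.15, NumPy 2.4.6, SciPy 1.17.1 and scikit-learn 1.9.0 were used. Gene positions are from GENCODE M21. A few results on single genes are not reported here.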

Additional observations from a re-analysis of the deposited data

Results flagged for a closer look

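A gene whose ratio was past 1.5-fold upward in one gate and downward in another is listed here; none of these differences between gates was tested, and each rests on 1 library per group. Log2 ratios set the NOD.Cxcl16-/- label over WT NOD. C1qa was upward in migratory DC (1.19), B cells (1.44) and CD8 T cells (0.82) and downward in cDC2 (-1.49) and cDC1 (-1.06). C1qb was upward in migratory DC (3.15), B cells (1.09) and CD4 T cells (0.80) and downward in cDC1 (-0.83). In migratory DC 1 cell held 64.5% of its 31 UMIs against 1 WT NOD UMI, and in WT NOD cDC1 1 cell held 57.1%. C1qc was upward in B cells (1.45) and downward in cDC2 (-1.04) and cDC1 (-0.72). In all these gates the C1q chains lay at or below 124 CPM, against 1992 CPM or more in macrophages. C3 was upward in CD4 T cells (1.96), where 1 cell held 35 of 38 UMIs, and downward in macrophages (-0.86) and cDC2 (-0.79, interval -2.05 to 0.23). Cfp was upward in migratory DC (0.78) and downward in cDC1 (-0.80) and CD8 T cells (-0.79).

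Kept cells in no gate entered no comparison but held C1q at 294 CPM in the WT NOD library and 1571 CPM in the library labelled NOD.Cxcl16-/-, above the 5.62 CPM and 18.3 CPM of B cells.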

How the results depend on the processing

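No paired analysis was possible because each group has 1 library, and for the same reason no library could be left out. A count of calls among classical monocytes, planned beside the other gates, was not made, since they had fewer than 50 cells. The number of genes with the same highest gate among the ranked gates, 10 of 10, did not change under any of 9 alternatives, of which 10 CPM added could not change it. The number past 1.5-fold in macrophages, 3, became 6 with at least 200 genes per cell and 5 with at most 5% mitochondrial UMIs. In cDC2 the 3 became 1 with 1 more marker needed, 1 with cells thinned to 2000 UMIs and 1 with 10 CPM added, and in B cells the 3 became 0 with 10 CPM added. The log2 ratio of summed C1q in macrophages, 0.32, was 0.38 with doublet calls kept, 1.10 with at least 200 genes, 0.61 with at most 5% mitochondrial UMIs, 0.37 after thinning, -0.36 with no limit on other lineages and 0.0012 with 6 or more macrophage markers, the last chosen after seeing the data. In cDC2 the sign turned for C1qa (0.38) with no limit on other lineages, for C1qc with 1 more marker (1.15) and with no limit (1.29), and for C3 with 1 more marker (0.092) and with no limit (0.25). The cause of these shifts was not tested. Of the values for single genes, 213 stayed within the counting interval, 70 moved outside it with no called ratio changing sign, and 5 called ratios changed sign, those just given. Ratios inside 1.5-fold changed sign too: C1qb in cDC2 (-0.35) became 3.33 with 1 more marker and 2.17 with no limit on other lineages. Cfp in macrophages (0.12) kept its sign in 4 of 10 alternatives, reaching -0.49, and C1qa, C1qb and C1qc there reached -0.37, -0.34 and -0.38 with no limit. Depth limits the ratios that rest on few WT NOD UMIs, such as C1qb in migratory DC (1), C3 in CD4 T cells (2), Cr2 in plasma cells (3), C1qc in B cells (7) and C3ar1 in macrophages (21).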
